A study of Ambystoma mexicanum with 12 samples.

Results

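Among 99088 gene ids counted in limbs of the axolotl, 22 were read in both aged limbs and almost nowhere in juvenile limbs. An id was taken if it had at least 10 reads in each of the 2 aged limbs and at most 5 reads summed over the 5 juvenile limbs. Ids that the study listed as going with age, or named among its shared blastema genes, were left out, as were ids with 10 reads in each of the 5 blastemas. Of 18680 ids that reached the aged limit, 24 (0.128%) also met the juvenile limit. The lists removed 2 of these and the blastema condition removed 0. The difference between aged and juvenile limbs was therefore used to choose the 22 ids, and it is given here as a description of read counts.

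The axolotl is a salamander that regrows a lost limb from a blastema, a mound of proliferating progenitor cells under a wound epidermis. Its very large genome is rich in retrotransposons, and many ids of its transcript-based annotation carry no gene name. Limb tissue is a mixture of epidermis, muscle, connective tissue, skeleton and blood cells, so a transcript seen at 1 age can come from any of them.

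RNA was sequenced from 12 libraries in 3 groups, which the study used to ask how regenerating and aged limbs differ from juvenile limbs. The group Juvenile_limb held limb tissue removed at amputation from 5 axolotls aged 8 months, and the group Blastema held the blastemas that formed on the same 5 animals 10 days after amputation. The group Aged_limb held limb tissue of 2 other axolotls aged 8 years, which formed no blastema, so that there is no aged tissue after amputation. All animals came from a captive colony descended from wild axolotls of Lake Xochimilco, and the sources name the limb taken in different ways (posterior leg in the labels, inferior limbs in the study's methods, forelimb in its results). Sex was not given, and age cannot be told apart from any other feature that the 2 aged animals share.

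Library totals ran from 12975883 to 20663627 reads assigned to ids, with 17666680 in aged limb replicate 1 and 16836023 in aged limb replicate 2. Juvenile limb replicate 6 had reads for 46501 ids, against 33236 to 36603 in the other juvenile limbs. Levels below are CPM, the reads of an id scaled to library size (TMM factors). Most of the tissue genes below came from a list of genes that the study called on these samples. Their differences between groups are therefore partly set by that choice. Aged limb replicate 2 stood apart in muscle: the summed level of 16 skeletal muscle genes was 2593 CPM there, against 19717 in aged limb replicate 1 and 9405 to 37896 in the juvenile limbs. The sum of 10 keratinocyte genes, which mark epidermis, lay within the juvenile range in both aged limbs (11178 and 10979 CPM, against 6590 to 17306). Both aged limbs lay below every juvenile limb for 3 bone genes (1.33 and 3.30 CPM, against 14.1 to 28.7) and for 6 connective tissue genes (98.3 and 109 CPM, against 134 to 215). Most of the latter sum was COL12A1 (53.4 and 69.5 CPM, against 88.7 to 126.9), while FBLN1 was not low (8.13 and 9.30 CPM, against 3.27 to 8.60) and MFAP5 overlapped (21.1 and 20.1 CPM, against 21.1 to 39.4). The sum of 6 myeloid genes was within the juvenile range (228 and 417 CPM, against 116 to 433). C5AR1 (2.35 and 3.43 CPM, against 1.01 to 1.96) and C3AR1 (1.38 and 1.12 CPM, against 0.134 to 0.711) lay above it. The other myeloid genes lay outside it in neither direction in both aged limbs. Immunoglobulin light chain genes were at 2.04 CPM in aged limb replicate 1 and 12.5 CPM in replicate 2, against 1.54 to 9.97 CPM in the juvenile limbs, and 3 of the 12 had no read in either aged limb. The sums of the mucous epithelium, T and NK cell and proliferation genes lay within the juvenile range in both aged limbs. Single genes did not all do so. The proliferation gene ORC6 lay above every juvenile limb (3.73 and 3.63 CPM, against 1.13 to 3.49) and CKAP2L below (0.178 and 0.660 CPM, against 1.60 to 4.08). CCL19, from the T and NK cell list, also lay below (3.47 and 6.86 CPM, against 7.31 to 26.4). No other gene of that list lay below every juvenile limb in both aged limbs, and its copy CCL19.1 did not (6.44 and 2.38 CPM, against 0.965 to 6.79). The sum of 3 fat genes was 56.7 and 13.7 CPM, against 28.5 to 105. Most of that sum was ADIPOQ (46.2 and 7.26 CPM, against 24.0 to 100.9). PLIN2 lay above every juvenile limb (10.5 and 6.33 CPM, against 3.18 to 5.81), and LEP was at 0.0 and 0.066 CPM, against 0.0 to 0.889. Over all ids tested between aged and juvenile limbs, 6.97% had both aged limbs above every juvenile limb in CPM. The share with both below is not given here. None of the tested genes of these lists was called in that comparison (edgeR, described below), so nothing is read from genes outside the juvenile range. The part of tissue makeup in the counts below was not tested, and in bulk tissue more cells of a type and more RNA per cell cannot be told apart.

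None of the 22 ids had a gene name in the study's lists, and 0 appeared in any of them, so no role is given for them. Those lists named only 1585 of the 99088 ids, and the choice of ids had already left out some of the listed ones. The lack of names is therefore not read as a trait of the 22. Of the 22 ids, 15 carried the prefix AMEX60DD and 7 (31.8%) the prefix AMEX60DDU, a second numbering series of the annotation. That second series made up 42.7% of all ids but only 7.92% of the ids with 10 reads in both aged limbs. The 2 ids that met the count limits but were left out were both named copies of VMO1, a gene known for a protein of the outer vitelline membrane of bird eggs. VMO1.9 had 28 and 27 reads in the aged limbs, 2 in juvenile limb replicate 6 and 3 in blastema replicate 8. VMO1.11 had 21 and 26 reads in the aged limbs, 0 over the juvenile limbs and 3 in blastema replicate 8. Both copies thus had low aged counts like most of the 22.

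Over the 22 ids together, the aged limbs held 2102 reads, the juvenile limbs 28 and the blastemas 83. Aged limb replicate 1 gave 1186 of these and aged limb replicate 2 gave 916, or 52.7 and 60.4 CPM. The juvenile limbs gave 2 to 9 reads each, or 0.098 to 0.415 CPM. The 6 ids with most aged reads held 64.5% of the aged total, so the sum mostly follows those 6. The median id had 51.5 aged reads, against 286 for all ids with 10 reads in both aged limbs, and 10.1% of those ids had fewer reads than the median of the 22. The 22 were thus low in reads: single aged levels ran from 0.444 to 9.73 CPM.

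**Figure D1:**
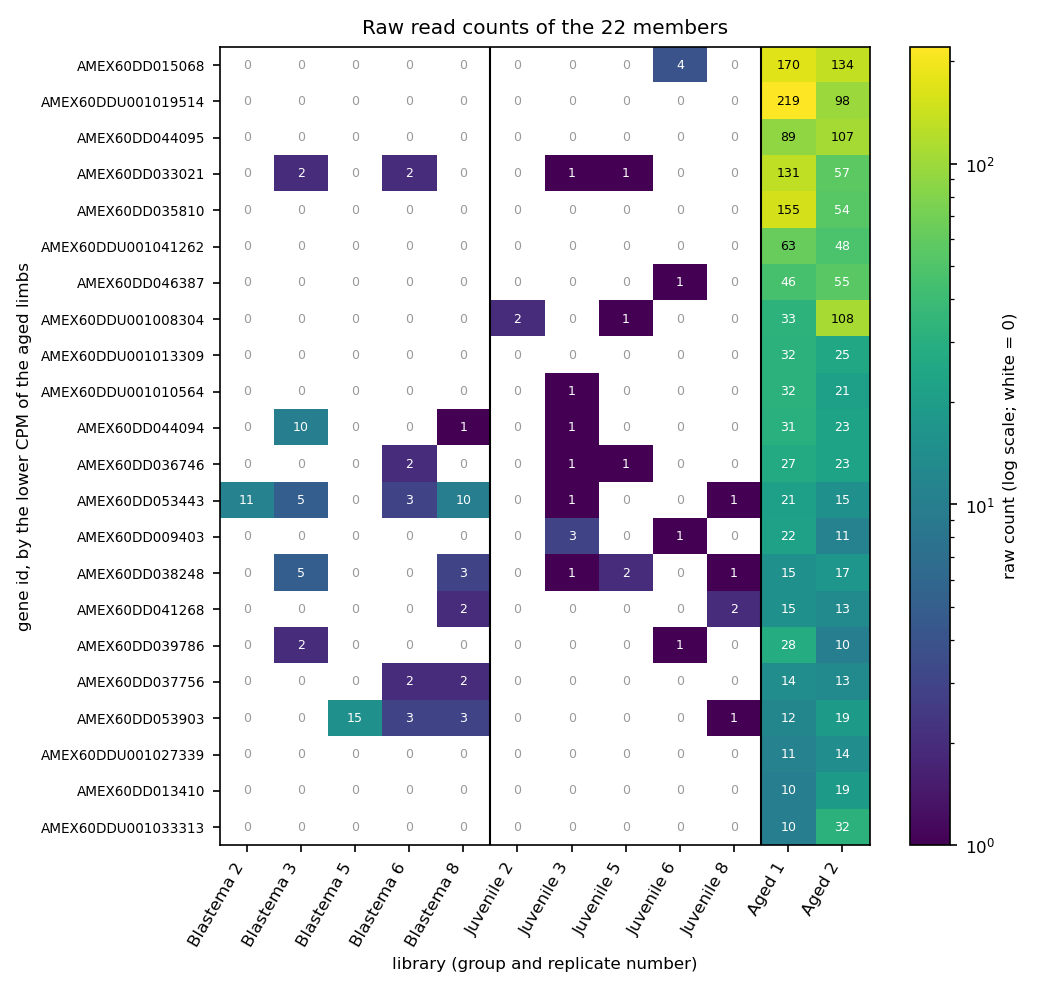
Raw read counts of the 22 ids (rows, ordered by the lower CPM of the 2 aged limbs) in the 12 libraries (columns); colour is the count on a log scale and white is 0. The aged columns hold 10 to 219 reads per id, and no juvenile count of these ids is above 4.

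First by the lower of its 2 aged levels in CPM, which does not correct for transcript length, was AMEX60DD015068. It had 170 and 134 reads in the aged limbs, 4 in juvenile limb replicate 6, 0 in the other juvenile limbs and 0 in every blastema. The aged level was 181 times the juvenile level (95% exact interval 70.2 to 670.4, which covers counting error only). Juvenile limb replicate 6 was thus the single library outside the aged pair with a read.

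AMEX60DDU001019514 had the most reads of the 22, 219 and 98 in the aged limbs. It had 0 in all 5 juvenile limbs and 0 in all 5 blastemas. Against the floor of 3 reads over a group, used wherever a group was at 0, its aged level was at least 252-fold higher than in the juvenile limbs and at least 196-fold higher than in the blastemas. AMEX60DD044095 had 89 and 107 aged reads and AMEX60DD035810 had 155 and 54. Both also had 0 reads in all 5 juvenile limbs and in all 5 blastemas. The aged level was at least 156-fold higher than in juvenile limbs for the first and at least 166-fold higher for the second. These 3 ids and AMEX60DDU001041262, with 63 and 48 aged reads and 0 elsewhere, were the highest of 8 ids seen in no library but the aged ones.

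The other 4 of those 8 ids had fewer reads. AMEX60DDU001013309 had 32 and 25 in the aged limbs, and AMEX60DDU001033313 had 10 and 32. AMEX60DD013410 had 10 and 19, and AMEX60DDU001027339 had 11 and 14. At 11 and 14 reads the bound was at least 19.9-fold over the juvenile limbs, the lowest bound of the 9 ids with no juvenile read. With 5 of its 7 ids in this group, the AMEX60DDU series made up more of these ids than the AMEX60DD series did, with 3 of its 15. The matching shares over all ids of each series are not given here, so nothing is read from this split.

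AMEX60DD033021 had 131 and 57 aged reads, 1 read each in juvenile limb replicates 3 and 5, and 2 each in blastema replicates 3 and 6. Its aged level was 224 times the juvenile level (95% exact interval 61.3 to 1867) and 87.4 times the blastema level (33.6 to 324). AMEX60DD046387 had 46 and 55 aged reads, 1 read in juvenile limb replicate 6 and 0 in the blastemas. AMEX60DDU001008304 had 33 and 108 aged reads, 2 in juvenile limb replicate 2, 1 in juvenile limb replicate 5 and 0 in the blastemas. These complete the 8 ids with the highest lower aged level, and in each of them the lower aged count was 33 or more.

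Beyond those 8, the lower aged count was 10 to 25. Of the 22, 10 ids had a lower aged count of 10 to 19, so that a few reads decided their place. Reads in juvenile limbs were scattered: 7 ids had them in 1 juvenile limb, 5 in 2, and 1 (AMEX60DD038248, with 1, 2 and 1 reads in replicates 3, 5 and 8) in 3. Over the juvenile limbs, the ratio of aged to juvenile level for the 13 ids with a juvenile read ran from 19.104 (AMEX60DD038248, 95% exact interval 6.78 to 74.4) to 241 (AMEX60DD046387, 42.3 to 9619). The width of the second interval comes from a single juvenile read.

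The ids just beyond the limits looked much like those just within them. At the aged limit, AMEX60DD039786 with 28 and 10 aged reads and AMEX60DD013410 with 10 and 19 were taken, while AMEX60DD046827 with 17 and 9 and AMEX60DDU001008968 with 27 and 9 were not. In all, 79 ids had a lower aged count of 5 to 9 with at most 5 juvenile reads. At the juvenile limit, AMEX60DD015068 and AMEX60DD009403 (22 and 11 aged reads) were taken with 4 juvenile reads each. AMEX60DDU001003435 was not, although it had 454 and 221 aged reads, since its 6 juvenile reads, all in juvenile limb replicate 6, passed the limit. It had more aged reads than any of the 22 and 0 in the blastemas. AMEX60DD048066, with 87 and 90 aged reads, 6 juvenile reads and 18 blastema reads, was the other id just outside, and 20 ids in all had 6 to 10 juvenile reads.

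The aged and juvenile limbs were also compared with edgeR's quasi-likelihood test over 24316 ids, where a call needed a log2 fold change beyond 1 and a Benjamini-Hochberg adjusted p under 0.05. Of the 22 ids, 20 passed the filter on low counts and 4 were called higher in the aged limbs, namely AMEX60DD015068, AMEX60DD033021, AMEX60DD046387 and AMEX60DDU001019514. Over all ids tested, 0.0535% were called higher in the aged limbs and 0.0494% lower. The 22 were selected on this contrast, so nothing is read from that count. It was 12 with DESeq2, 1 with all 12 libraries in one fit and 0 whenever any 1 of the 7 limbs was left out. In CPM, both aged limbs lay above every juvenile limb for 22 of 22 ids, as the limits set, and for 6.97% of all ids tested.

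The 2 aged limbs were then set against each other, since the limits asked only for 10 reads in each. On TMM library sizes, the log2 ratio of replicate 1 to replicate 2 had a median of −0.28 over the 22 ids and ran from −2.28 to 0.95 (SD 0.88). Over all 18680 ids with 10 reads in both aged limbs the median was −0.03 and the SD 0.97. With library totals in place of TMM sizes the medians became 0.22 and 0.47, so which aged limb was the higher depends on the scaling. Either scaling moved the median of the 22 and that of all ids by the same amount.

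Of the 22 ids, 18 (81.8%) had aged levels within 1 log2 unit of each other. The share was 78.6% over all 18680 ids, and 73.9% over the 9727 of them whose summed aged count lay within the range of the 22, 25 to 317 reads. The share of the 22 lay above both, but a shared range of summed reads does not match the ids on depth within it. The least count required in each aged limb also bounds how far apart the levels of an id with few reads can lie. The shares are therefore partly set by the choice of ids, and they are no measure of how well the aged limbs agree. Counting error alone covered the difference for 13 ids, whose exact 95% interval for the share of reads in replicate 1 held the library share of 59.8%. For 9 ids it did not: 3 had more in replicate 1 and 6 more in replicate 2. That library share rests on TMM sizes. Library totals would lower it, so these counts depend on the scaling as the medians did.

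The ids furthest apart between the aged limbs were AMEX60DDU001008304 and AMEX60DDU001033313, both higher in replicate 2. AMEX60DDU001008304 stood at 1.47 and 7.13 CPM, with 23.4% of its aged reads in replicate 1 (95% exact interval 16.7% to 31.3%). AMEX60DDU001033313 stood at 0.444 and 2.11 CPM, with 23.8% in replicate 1 (12.05% to 39.5%). On the other side, AMEX60DD035810 stood at 6.89 and 3.56 CPM and AMEX60DD039786 at 1.24 and 0.660 CPM. The first had 74.2% of its aged reads in replicate 1 (67.7% to 80.0%). The second had 73.7%, and its interval of 56.9% to 86.6% held the library share on TMM sizes. Aged limb replicate 2, which was low in muscle genes, was the higher of the pair for 16 of the 22 ids on TMM sizes (9657 of all 18680 ids) and for 8 on library totals, and the part of muscle content in this was not tested.

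**Figure D2:**
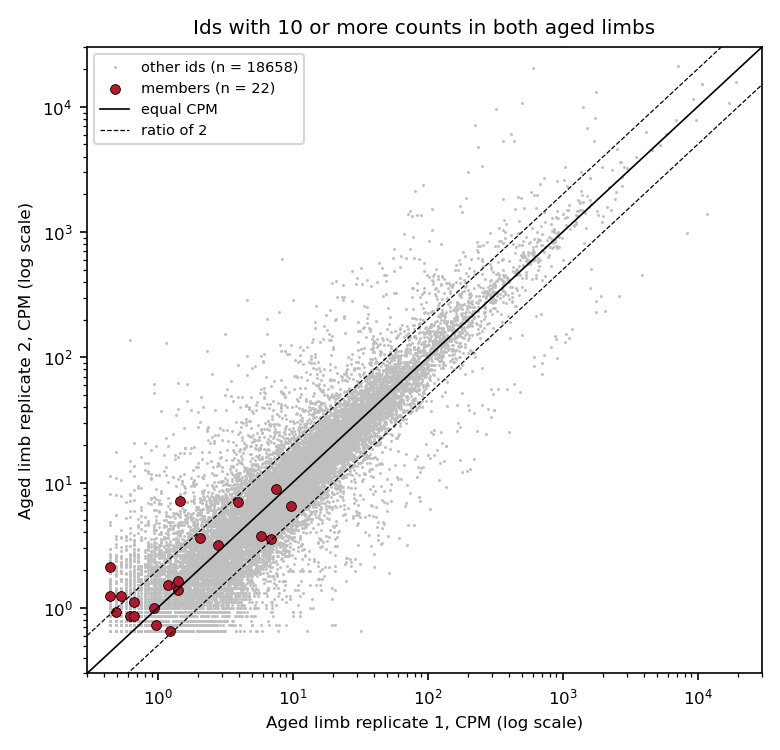
Level in aged limb replicate 2 against aged limb replicate 1, in CPM on log axes, for ids with 10 or more reads in both; red points are the 22 ids, grey points all others, the solid line marks equal CPM and the dashed lines a ratio of 2. The 22 lie in the lower part of the cloud, and 18 fall between the dashed lines.

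In the blastemas, 13 of the 22 ids had no read and 9 had 2 or more. All 9 belonged to the AMEX60DD series, which holds 15 of the ids, and 0 of the 7 AMEX60DDU ids had a blastema read. The share of ids with no blastema read over all ids, or by series, is not given here. These counts are therefore a description and not a trait of the 22. The summed reads of the 22 ids in blastema replicates 2, 3, 5, 6 and 8 were 11, 24, 15, 12 and 21, against 2, 9, 5, 7 and 5 in the limbs of the same animals. Blastema sums ran from 0.922 to 1.63 CPM, far below the 52.7 and 60.4 CPM of the aged limbs. The limits capped juvenile reads and left blastema reads almost free, so a blastema sum above the juvenile sum is partly set by the choice of ids. They also required reads in both aged limbs, so the gap between the aged and blastema sums is partly set by that choice too.

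AMEX60DD053443 had the most blastema reads, with 11, 5, 0, 3 and 10 in blastema replicates 2, 3, 5, 6 and 8. It had 1 read each in juvenile limb replicates 3 and 8, and 21 and 15 in the aged limbs. In CPM the blastemas ran from 0 to 1.05 and the aged limbs were at 0.933 and 0.990, so that the groups overlapped. Its aged level was 2.31 times the blastema level (95% exact interval 1.38 to 3.90). That interval covers counting error only and leaves out differences between animals.

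AMEX60DD053903 had 0, 0, 15, 3 and 3 blastema reads in the same order, 1 read in juvenile limb replicate 8, and 12 and 19 in the aged limbs. Blastema replicate 5 reached 1.21 CPM, above the 0.533 CPM of aged limb replicate 1 and near the 1.25 CPM of aged limb replicate 2. The ratio of aged to blastema level was 2.74 (95% exact interval 1.53 to 5.03, counting error only, with differences between animals left out). These 2 ids were found in several blastemas as well as in the aged limbs, so "aged only" describes them solely in relation to juvenile limbs.

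AMEX60DD044094 had 10 reads in blastema replicate 3, 1 in blastema replicate 8 and 0 in the other 3, beside 31 and 23 in the aged limbs and 1 in juvenile limb replicate 3. Its aged level was 9.13 times the blastema level (95% exact interval 4.72 to 19.4, counting error only, with differences between animals left out). AMEX60DD038248 had 5 reads in blastema replicate 3 and 3 in replicate 8, with 15 and 17 in the aged limbs. The remaining 5 ids with blastema reads had 2 to 4 each. For both ids described here, blastema reads came from a minority of the 5 animals.

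No member of the 22 passed the filter on low counts in the fit of blastema against juvenile limb (edgeR, 19961 ids, of which 1.86% were called higher and 5.6% lower in the blastema), so 0 were called and 0 had an unadjusted p under 0.05. With the animal as a block 0 were tested as well. With all 12 libraries in one edgeR fit, 18 of the 22 were tested, 0 were called and 2 had an unadjusted p under 0.05, and the adjusted p was 0.0626 for AMEX60DD053443 and 0.109 for AMEX60DD053903. With DESeq2, which gave an adjusted p for 2 of them, AMEX60DD053443 was called higher in the blastema (log2 fold change 4.28, adjusted p = 0.0460). With edgeR and no filter the adjusted p of AMEX60DD053443 was 0.194, and AMEX60DD053903 was called by none of these fits. At these depths the 22 ids could seldom show a difference between blastema and juvenile limb. The limits also capped the juvenile reads that enter these fits, so the values above are a description.

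Against the blastemas, both aged limbs were higher in CPM than every blastema for 20 of the 22 ids, where 14.7% of the 18680 ids with 10 reads in both aged limbs had that order. The exceptions were AMEX60DD053443 and AMEX60DD053903. In edgeR's fit of blastema against aged limb, 18 of the 22 ids were tested and 5 were called lower in the blastema, against 1.15% of 22076 ids called lower and 0.439% called higher. The 5 were AMEX60DD015068, AMEX60DDU001019514, AMEX60DD033021, AMEX60DD044095 and AMEX60DD035810, with adjusted p from 0.0150 to 0.0319. The aged counts that chose the 22 enter this fit too, so these values are a description. Leaving out aged limb replicate 1 took the count from 5 to 0, leaving out aged limb replicate 2 to 1, and leaving out blastema replicate 6 to 3. The 2 ids with most blastema reads had the smallest differences, with a log2 fold change of −1.03 ± 1.23 (SE) for AMEX60DD053443 and −1.37 ± 1.52 for AMEX60DD053903.

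**Figure D3:**
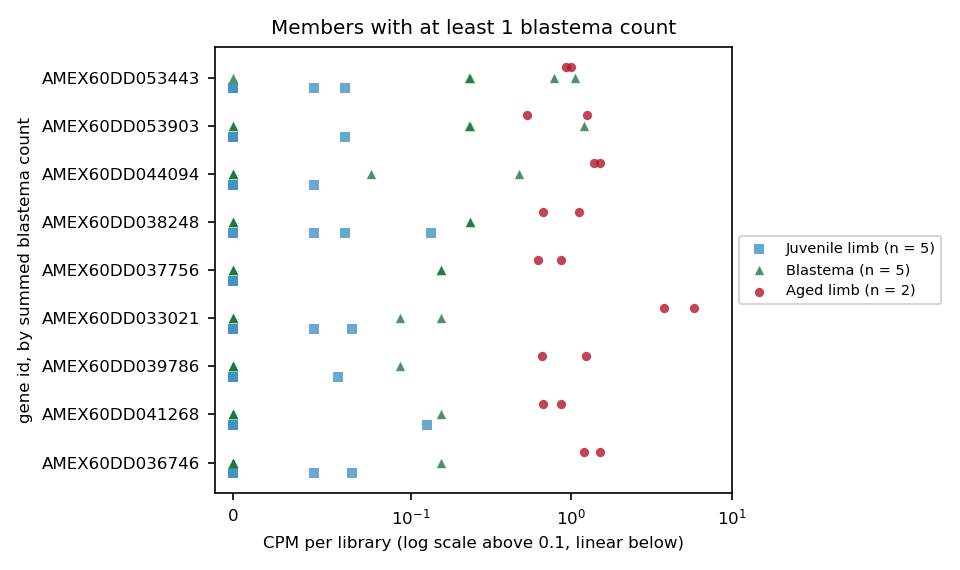
Level per library of the 9 ids with a blastema read, in CPM (log scale above 0.1, linear below), for 5 juvenile limbs (blue squares), 5 blastemas (green triangles) and 2 aged limbs (red circles). Only AMEX60DD053443 and AMEX60DD053903 have a blastema at or above the lower aged limb.

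Id numbers in this annotation were used to ask what lies beside the 22 ids, since numbers that follow each other were taken as a rough guide to order. The AMEX60DDU id that the study located lay on a sequence not named as a chromosome, unlike the AMEX60DD ids it located. AMEX60DDU numbers that follow each other may therefore not lie side by side. The 22 were spread widely: 1 pair had consecutive numbers, and the next smallest distance was 460 id numbers. The 210 other ids within 5 numbers on either side included 83 with no read in any library. Of these 210, 53 passed the filter in the aged against juvenile fit, 0 were called higher and 0 lower, and 6 had an unadjusted p under 0.05. DESeq2 called 1 of them, AMEX60DD015066. Their median log2 fold change was 0.13, against −0.04 over all ids tested. In 8 of the 53 (15.1%) both aged limbs lay above every juvenile limb, where 6.97% of all ids tested did. Within 1 number the median was 0.34 over 10 tested ids, and within 10 numbers it was −0.02 over 107.

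The consecutive pair was AMEX60DD044094 and AMEX60DD044095, whose counts are given above. AMEX60DD044095 had more aged reads and none elsewhere, while AMEX60DD044094 had reads in 2 blastemas and 1 juvenile limb. Of the 10 other ids within 5 numbers of the pair, 5 had no read in any library. AMEX60DD044089 and AMEX60DD044090 were read in every library, and their log2 fold changes in the aged limbs were −0.14 ± 0.31 (SE) and −0.13 ± 0.26. AMEX60DD044091 was read chiefly in the blastemas, with 94, 475, 120, 200 and 107 reads in replicates 2, 3, 5, 6 and 8. It had 7 reads in juvenile limb replicate 6, 0 in the other juvenile limbs, and 2 and 0 in the aged limbs. Within this short run of numbers, ids seen in all tissues, chiefly in blastemas and chiefly in aged limbs thus stood close in number.

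Near AMEX60DD015068 lay the neighbour with the largest log2 fold change toward the aged limbs. AMEX60DD015066 had 98 and 52 reads in the aged limbs, 0, 3, 0, 8 and 0 in juvenile limb replicates 2, 3, 5, 6 and 8, and 7, 16, 7, 0 and 0 in the matching blastemas. Its log2 fold change in the aged limbs was 4.87 ± 1.13 (SE), with an adjusted p of 0.268 (edgeR), and DESeq2 called it higher (log2 fold change 4.94, adjusted p = 0.00208). Both aged limbs were above every juvenile limb, and juvenile limb replicate 6 was the highest of those 5, as it was for AMEX60DD015068. That library had reads for more ids (46501) than any other juvenile limb (33236 to 36603), so nothing is read from this shared order.

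On the same side of AMEX60DD015068, 5 numbers before it, lay an id that differed between animals rather than tissues. AMEX60DD015063 had 116, 95 and 122 reads in juvenile limb replicates 3, 5 and 8, and 78, 64 and 70 in the blastemas of those animals. In replicates 2 and 6 it had 1 and 4 reads in the limb and 1 and 0 in the blastema, and the aged limbs had 4 and 1. Its log2 fold change in the aged limbs was −4.88 ± 1.86 (SE), with an adjusted p of 0.616 (edgeR). For this neighbour, 2 of the 5 juvenile animals were as low as the 2 aged ones.

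A further pair of neighbours stood directly beside one of the 22. AMEX60DD038249, next to AMEX60DD038248, had 41 and 17 aged reads and 6, 1, 1, 1 and 5 juvenile reads in replicates 2, 3, 5, 6 and 8 (log2 fold change 3.16 ± 0.92, adjusted p = 0.444 with edgeR). AMEX60DD037757, next to AMEX60DD037756, had 38 and 12 aged reads, 13 in juvenile limb replicate 2 and 0 to 2 in the others (2.74 ± 1.20, adjusted p = 0.665). Both aged limbs were above every juvenile limb for each of them in CPM, and neither passed the test.

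A single named id lay within 5 numbers of any of the 22. It was ENV.70 (AMEX60DD053899), which carries the name of retroviral envelope genes and lies 4 numbers from AMEX60DD053903. It had 270 and 20 reads in the aged limbs and 81 to 213 in the juvenile limbs, and it did not share the pattern of AMEX60DD053903. In the blastemas it had 0 to 11 reads, and its log2 fold change against the juvenile limbs was −4.24 (edgeR, adjusted p = 8.7e-04). Around AMEX60DDU001019514, the id with most aged reads, 7 of the 10 ids within 5 numbers had no read in any library. It belongs to the AMEX60DDU series, so these ids may not lie beside it.

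**Figure D4:**
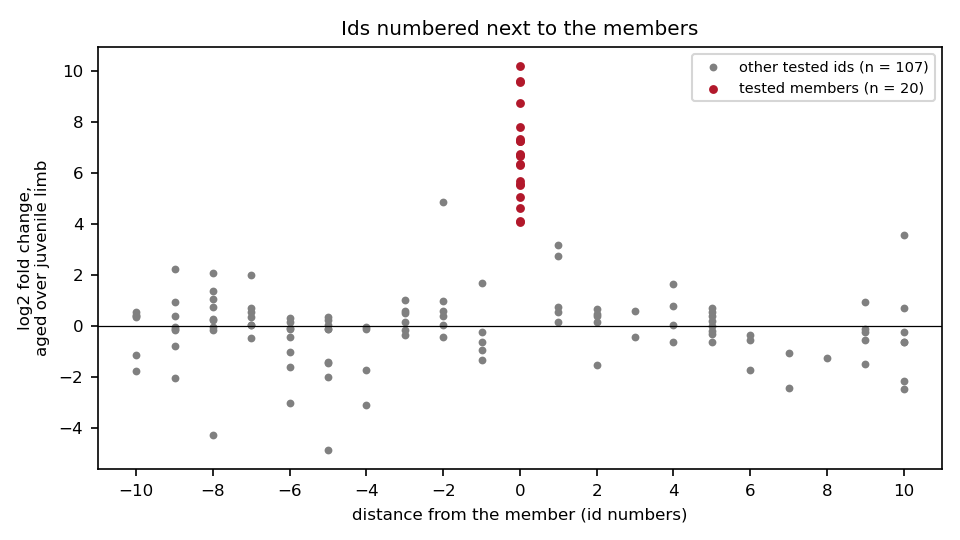
Log2 fold change of aged over juvenile limb (edgeR) for the 20 tested ids of the 22 (red, at 0) and for the 107 other tested ids within 10 id numbers (grey), by distance in id numbers; an id near 2 of the 22 is drawn at both distances. The highest grey point, at 4.87, lies 2 numbers before AMEX60DD015068. All 5 tested ids directly after one of the 22 lie above 0 (0.13 to 3.16), as does 1 of the 5 directly before, and 0 of these were called. The share above 0 over all tested ids is not given here, so nothing is read from this split.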

How the data were processed

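The authors deposited raw read counts per gene id for 12 libraries (a strand-marking, ribosomal RNA-depleted kit). Per the submitters' notes and the study's methods, Trimmomatic 0.39 trimmed the reads, STAR 2.7.9a placed them on the AmexG_v6.0-DD assembly, and featureCounts assigned them to AmexT_v47 ids; the strand setting and the treatment of reads shared by near-identical copies are not given in the sources used here, so counts of copies and of antisense partners are uncertain. Single-library files and the joint matrix differed in 0 values. CPM used TMM library sizes over all libraries. Comparisons used edgeR 4.0.16 (filterByExpr, TMM, quasi-likelihood, R 4.3.3), tested on simulated data; DESeq2 1.42.0 was an alternative. Same-numbered limb and blastema come from the same animal; their deviations from the group means correlated at 0.030 to 0.204 over 5 pairs.

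The ids, marker lists and tests were chosen with earlier results of these data known. Most marker genes came from a list of genes that the study called on these samples. Ids named in the text are the 8 with the highest lower aged CPM, the 4 with most blastema reads, the 2 highest and 2 lowest aged ratios, those beside each limit, consecutive ids and named ids within 5 numbers; further neighbours and the other ids with no read outside the aged limbs were named after their values were seen. Exact intervals (Clopper-Pearson, 95%) and the floor of 3 reads cover counting error only. No gene lengths, positions or sequences were used, so levels are not compared between ids per length. Replicates are separate animals.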

Additional observations from a re-analysis of the deposited data

Results flagged for a closer look

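Single libraries far from the other 4 of their group were looked for by the gap to the next library over the group's range. The limit used is exceeded in about 1 of 20 groups of normally distributed values, a rate that low counts need not follow. This rule always singles out an id read in only 1 library of 5, and 14 of 34 groups were singled out here, 5 of them on a single read. In juvenile limb replicate 6 these were AMEX60DD015068 (0.237 CPM), AMEX60DD039786 (0.0593 CPM), AMEX60DD046387 (0.0593 CPM) and the neighbour AMEX60DD044091 (0.415 CPM). In juvenile limb replicate 3 they were AMEX60DD044094 (0.0460 CPM) and AMEX60DDU001010564 (0.0460 CPM), in replicate 8 AMEX60DD041268 (0.126 CPM) and AMEX60DD053903 (0.0629 CPM), and in replicate 2 the neighbour AMEX60DD037757 (0.635 CPM).

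Among the blastemas, AMEX60DD053903 stood out in replicate 5 (1.21 CPM) and AMEX60DD044094 in replicate 3 (0.471 CPM), on 15 and 10 reads. AMEX60DD039786 did so in replicate 3 (0.0942 CPM), AMEX60DD036746 in replicate 6 (0.154 CPM) and AMEX60DD041268 in replicate 8 (0.155 CPM), on 2 reads each. AMEX60DD041268 and AMEX60DD044094 stood out in the limb and the blastema of the same animal, numbered 8 and 3, whereas AMEX60DD039786 and AMEX60DD053903 did so in different animals.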

How the results depend on the processing

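The number of ids depended on the limits: 12 with a least aged count of 20, 101 with 5, 9 with no juvenile read, 42 with up to 10 juvenile reads, and 28 to 242 when 1 limb was left out of the rule (128 without aged limb replicate 1, 242 without aged limb replicate 2, 36 without juvenile limb replicate 2 or 6, and 34 without replicate 8). Without the table exclusions it was 24, without the blastema condition 22, and on counts scaled to the median total 18. Ids called higher in the aged limbs numbered 4, against 12 with DESeq2 (3 of the 4 among them), 14 without a filter, 1 with all 12 libraries in one fit and 0 without any 1 limb (0 to 0). Over all ids, 13 were called higher in the aged limbs, against 68 with DESeq2 and 230 without a filter. With all 12 libraries in one fit 5 were called higher, and without 1 juvenile limb 0 to 1. Both directions together gave 25 calls in the main fit, 305 with DESeq2 and 897 without a filter. Ids called lower in the blastema than in the aged limb numbered 5, against 11 with DESeq2, 12 without a filter, 9 with all libraries in one fit and 0 to 7 without 1 library. Over all ids, 254 were called lower in the blastema than in the aged limb in the main fit. The matching numbers under the alternatives are not given here, so nothing is read from the change in count. Between blastema and juvenile limb 0 of the 22 ids were called (0 tested), against 1 with DESeq2. With the replicate block, which pairs limb and blastema of an animal, the count was 0 because 0 of the ids passed the filter, so the block says nothing about them; over all ids it gave 1394 calls in place of 1488. Without an aged limb, the lone aged library is assumed to vary like the other group. Of 404 fold changes of single ids under alternatives, 0 changed direction, 45 lost a call and 33 gained one. The aged counts that chose the ids enter all of these fits, and the limits set the direction against the juvenile limbs. The lack of reversals is therefore a description and no measure of stability. With 2 aged animals and counts near 10, differences between animals limit what these ids can show.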
